A study of Arabidopsis thaliana with 12 samples.

Results

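The genes described here are 10 genes of flavonoid and anthocyanin synthesis in Arabidopsis thaliana seedlings, chosen by gene identifier from 19721 loci listed in any of 3 deposited gene tables. They comprise 7 enzymes (CHS, CHI, F3H, F3'H, FLS1, DFR and LDOX) and 3 transcription factors (MYB12, PAP1 and TT8). RNA came from bulked seedlings, 2 weeks old, in 4 groups of 3 replicates (12 samples). Wild type (Col-0) was sampled without treatment and 6 hours after a spray with 0.1 mM abscisic acid (ABA). The mutant rbm25-1 was likewise sampled without treatment and 6 hours after the same ABA spray. The mutant rbm25-1 affects RBM25, a splicing factor with a PWI domain and an RNA recognition motif, and the nature of the mutation is not stated. No mock spray is named for the untreated groups, so that spraying and ABA cannot be told apart, and whether replicates were separate cultures is not stated. All 12 samples had 4 days of stratification. All seedlings grew on medium with sucrose, a sugar known to raise anthocyanin synthesis in Arabidopsis.

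Flavonoids are made from phenylalanine. The general phenylpropanoid enzymes supply coumaroyl-CoA, chalcone synthase (CHS) and chalcone isomerase (CHI) build the flavonoid skeleton, and F3H and F3'H hydroxylate it. Flavonol synthase (FLS1) then draws the intermediate into flavonols, the colourless sunscreens of the epidermis, whereas DFR and LDOX lead to the red and purple anthocyanins. In seedlings the R2R3-MYB factor MYB12 activates the early enzymes and FLS1. A complex of an R2R3-MYB such as PAP1, a bHLH such as TT8 and the WD40 protein TTG1 activates DFR, LDOX and the enzymes that decorate anthocyanins.

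The stretches of DNA before the transcription starts are shown first for 4 of the genes, because each was called in a comparison below and holds letters that ABA- or flavonoid-related factors are known to bind. Each is the 250 bases before the annotated start, read from TAIR10.1 with the RefSeq annotation, 5′ to 3′ on the gene's own strand. All 4 genes lie on the plus strand, and the windows are chr5:4488226-4488475, chr3:19024942-19025191, chr2:19476076-19476325 and chr4:6181631-6181880 in the order shown. Capitals mark a G-box (CACGTG, a palindrome bound by bZIP and bHLH factors), an ABA-responsive element (ABRE, ACGTGNC) or an AC element, searched on both strands. An AC element here is any match to ACCNACC, a pattern wider than the AC elements known to be bound by R2R3-MYB factors. In MYB12 the G-box and the second ABRE overlap in a single run of capitals.
CHS: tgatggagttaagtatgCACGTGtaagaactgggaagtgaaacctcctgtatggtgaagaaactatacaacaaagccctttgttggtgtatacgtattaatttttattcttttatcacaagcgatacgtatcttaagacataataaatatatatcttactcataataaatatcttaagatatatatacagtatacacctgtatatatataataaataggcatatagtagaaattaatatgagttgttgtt
F3H: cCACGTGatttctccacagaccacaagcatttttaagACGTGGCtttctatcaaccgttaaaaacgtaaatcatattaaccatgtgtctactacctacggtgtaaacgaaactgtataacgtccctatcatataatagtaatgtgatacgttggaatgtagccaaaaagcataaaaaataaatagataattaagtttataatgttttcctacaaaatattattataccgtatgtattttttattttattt
MYB12: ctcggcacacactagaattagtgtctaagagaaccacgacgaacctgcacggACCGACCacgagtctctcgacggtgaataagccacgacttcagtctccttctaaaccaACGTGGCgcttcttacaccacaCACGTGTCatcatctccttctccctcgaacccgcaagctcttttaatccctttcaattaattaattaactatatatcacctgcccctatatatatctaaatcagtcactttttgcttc
TT8: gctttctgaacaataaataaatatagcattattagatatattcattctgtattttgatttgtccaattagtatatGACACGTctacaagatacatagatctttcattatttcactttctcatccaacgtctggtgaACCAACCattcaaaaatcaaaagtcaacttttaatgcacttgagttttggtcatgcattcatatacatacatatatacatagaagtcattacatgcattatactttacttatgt
A G-box was present in 4 of the 10 promoters (CHS, F3H, DFR and MYB12), against 6.49% of 27443 promoters of protein-coding genes with windows of the same length. An ABRE was present in 3 of 10 (F3H, MYB12 and TT8) against 8.57%. An AC element was present in 3 of 10 (ACCCACC in DFR, ACCGACC in MYB12 and ACCAACC in TT8) against 6.10%. The windows of CHI, F3'H, FLS1, LDOX and PAP1 held none of these letters. A match describes the letters and does not show that a factor binds there.

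The annotated start of CHS depends on the gene model. The deposited locus of CHS starts 212 bases inside the RefSeq model, and the 250 bases before that deposited start held 1 ABRE and 2 AC elements, all 3 inside the RefSeq transcript. The ABRE and the nearer AC element, which starts 70 bases before the deposited start, are shown as stretches of 30 bases at chr5:4488575-4488604 and chr5:4488607-4488636 of TAIR10.1, with the motif in capitals.
CHS ABRE: gctaacaactaGACACGTagatcttcatct
CHS AC element: ccgtccatctaACCTACCacactctcatct

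The values are the authors' group values in FPKM, that is, fragments scaled to transcript length and library size. Each table gives 1 value per group and none per sample, so values carry no SD or n, and read depth is unknown. A gene was called where the authors' adjusted p, named q, was under 0.05, and log2 fold changes are those of the deposited tables with no pseudocount. The labels were checked first: RBM25 (AT1G60200) had 9.15 FPKM in untreated wild type, 9.26 in wild type with ABA, 2.55 in untreated rbm25-1 and 1.46 in rbm25-1 with ABA per the authors' deposited tables. The ABA-induced dehydrin gene RAB18 went from 28.5 to 1065 FPKM in wild type with ABA (q = 0.000132) per the authors' deposited table.

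CHS, CHI and F3H were the most abundant members in each of the 4 groups. CHS (AT5G13930, chr5:4488476-4490264, plus strand, TAIR10.1) had 16.9 FPKM in untreated wild type, 12.8 in wild type with ABA, 18.8 in untreated rbm25-1 and 22.3 in rbm25-1 with ABA per the authors' deposited tables. F3H (AT3G51240, chr3:19025192-19026872, plus strand) had 7.81, 8.59, 7.80 and 14.5 FPKM in the same order of groups per the authors' deposited tables. CHI (AT3G55120, chr3:20430059-20431597, minus strand) had 8.69, 11.7, 9.18 and 14.5 FPKM per the authors' deposited tables. For these 3 genes rbm25-1 with ABA was the highest group, and for CHS wild type with ABA was the lowest. F3'H (AT5G07990, chr5:2560328-2563137, plus strand), whose product adds the second hydroxyl group to the B ring, had 2.17, 1.08, 1.91 and 1.64 FPKM per the authors' deposited tables. FLS1 (AT5G08640, chr5:2803833-2805606, plus strand) had 7.42, 5.70, 6.27 and 6.47 FPKM per the authors' deposited tables. Both genes had their lowest value in wild type with ABA and their highest in untreated wild type.

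Of the regulators, MYB12 (AT2G47460, chr2:19476326-19479597, plus strand) had 2.70 FPKM in untreated wild type, 1.04 with ABA, 2.65 in untreated rbm25-1 and 1.09 in rbm25-1 with ABA per the authors' deposited tables, so that it was low in both groups with ABA. TT8 (AT4G09820, chr4:6181881-6186523, plus strand) had 0.0758 FPKM in untreated wild type, 1.94 in wild type with ABA and 1.83 in rbm25-1 with ABA per the authors' deposited tables. PAP1 (AT1G56650, chr1:21233555-21235292, minus strand) had 0.0425, 1.70 and 2.71 FPKM in these 3 groups per the authors' deposited tables. PAP1 and TT8 are partners in the complex that activates the anthocyanin genes. DFR (AT5G42800, chr5:17164093-17166032, minus strand) had 0.0742, 0.860 and 0.841 FPKM per the authors' deposited tables. LDOX (AT4G22880, chr4:12004726-12006209, minus strand), merged in the deposited locus with its neighbour AT4G22870, had 0.248, 0.572 and 0.960 FPKM per the authors' deposited tables. All 4 were lowest in untreated wild type, and none of them has a row in the table of untreated rbm25-1. That table lists no locus whose higher group lay under 0.547 FPKM, so that these 4 genes entered the other tables only through their groups with ABA, and their untreated mutant level is not analysed here.

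**Figure D1:**
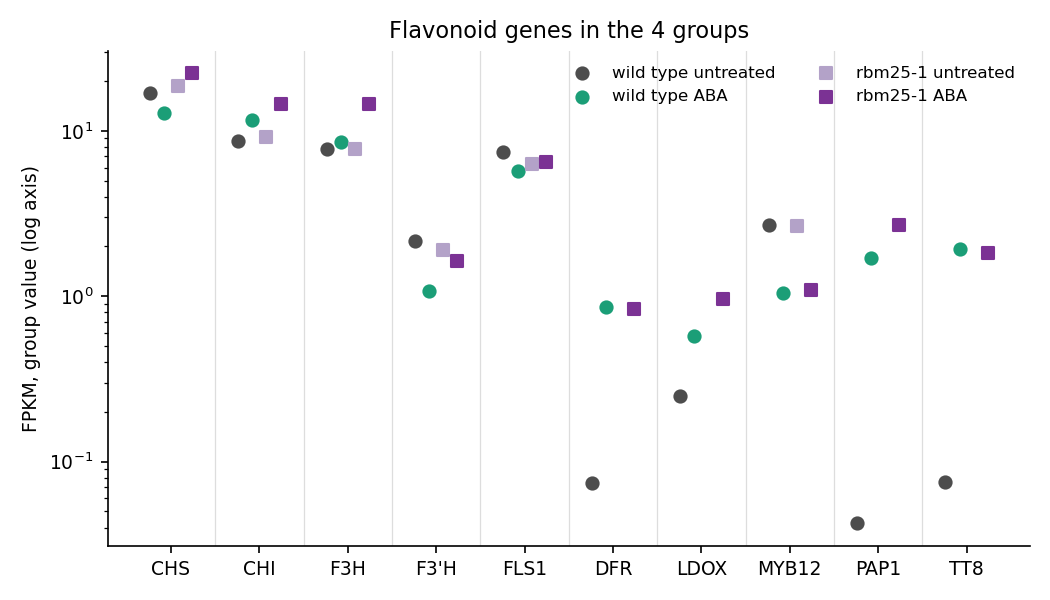
Group values of the 10 genes in FPKM on a log axis, 1 point per group with no error available; circles are wild type and squares rbm25-1. CHS is the most abundant member in each group, MYB12 falls from 2.70 to 1.04 FPKM with ABA in wild type, and TT8 goes from 0.0758 to 1.94 FPKM.

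Some deposited loci hold more than the named gene. The CHS locus also spans AT5G13940 on the minus strand and the long noncoding RNA AT5G02125 on the plus strand, the strand of CHS, the CHI locus spans the transporter genes ABCG18 and ABCG19, and the F3H locus overlaps the annotated antisense RNA AT3G51238. Whether the libraries kept strand is not stated, so reads of F3H and of AT3G51238 cannot be told apart. The coding sequences of LDOX and AT4G22870 were identical at 91.8% of 462 aligned bases, and reads of this pair may have been shared. For comparison, F3H, FLS1 and LDOX, which belong to the same family of 2-oxoglutarate-dependent dioxygenases, were identical at 57.5% to 60.1% of aligned bases between pairs.

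The first comparison asks how wild-type seedlings respond to ABA. TT8 was the 1 member called higher, with a deposited log2 fold change of 4.68 (q = 0.000132, the authors' deposited table). Like DFR, LDOX and PAP1, TT8 is listed here only through its group with ABA. A rise in these 4 genes was thus built into their listing, and their part in the counts below is no support for a rise. MYB12 fell by 1.37 on the log2 scale (q = 0.000132, the authors' deposited table) and F3'H fell by 1.01 (q = 0.000132, the authors' deposited table). CHS fell by 0.40 (q = 0.00536) and FLS1 by 0.38 (log2 -0.38, q = 0.0251) per the authors' deposited table. In total 1 of 10 members was higher and 4 were lower, while 26.0% of 19647 tested loci were called higher and 30.1% lower. The members' share of calls, 5 of 10, was thus near the 56.1% of all loci. By unadjusted p under 0.05 it was 6 of 10 against 59.9%. With at least 2-fold also required, 3 members were called, TT8 among them, against 23.4% of loci. The other 2 (F3'H and MYB12) were lower, against 11.6%. On the log2(FPKM + 1) scale the values of called members shrank to 1.45 for TT8, -0.86 for MYB12 and -0.61 for F3'H.

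The other 5 members did not pass. PAP1 had the largest deposited log2 value, 5.32, but q = 0.315, and DFR had log2 3.53 with q = 0.0769 per the authors' deposited table. LDOX with AT4G22870 had log2 1.20 (q = 0.140), CHI 0.43 (q = 0.112) and F3H 0.14 (q = 0.431) per the authors' deposited table. The 10 members had a median log2 of 0.28, and it was -0.39 over the 6 that passed the minimum in every table, against -0.07 over 18538 genes with a single identifier.

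The genes around the members were read in 5 lists that hold 53 further genes of the pathway. In wild type with ABA 18 of 40 listed loci were higher and 12 lower, again against 26.0% and 30.1% of all loci. Among the higher, GSTF12, SCPL10 and the locus of PAP2 and MYB114 lay under 0.547 FPKM without ABA, the lowest value that admits a locus. Their rise was thus built into their listing. EGL3, among the lower, lay under that value with ABA. Of 8 phenylpropanoid entry genes 5 rose and 2 fell. PAL4, for a phenylalanine ammonia-lyase, rose from 4.70 to 18.9 FPKM (log2 2.01), C4H, for cinnamate hydroxylase, from 106 to 260 (log2 1.29), and PAL3 fell from 6.21 to 1.81 (log2 -1.77) per the authors' deposited table. PAL1 and 4CL1 each had log2 0.94, and 4CL2, merged with its neighbours, 0.51, while PAL2 fell by 0.33 on the log2 scale per the authors' deposited table.

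Among 5 loci of other synthesis steps 3 rose and 1 fell. FLS3, a paralog of FLS1 with 75.2% identity over 920 aligned coding bases, rose from 10.3 to 27.2 FPKM (log2 1.40), and the merged locus of FLS4 and FLS5 fell from 79.7 to 25.5 (log2 -1.64) per the authors' deposited table. CHIL, which aids chalcone synthase, rose from 11.0 to 18.6 FPKM (log2 0.75), and the O-methyltransferase gene OMT1 from 105 to 208 (log2 0.98) per the authors' deposited table. Of 10 loci of decoration and transport 6 rose and 1 fell. GSTF12 (TT19), needed to bring anthocyanins to the vacuole, rose from 0.417 to 2.49 FPKM (log2 2.58), and SCPL10, a sinapoyltransferase gene, from 0.446 to 1.95 (log2 2.13) per the authors' deposited table. BGLU10, merged with its neighbour, had log2 1.57, UGT84A2, of sinapate glucosylation, 1.16, and UGT78D2, a flavonoid 3-O-glucosyltransferase gene, -0.44 per the authors' deposited table. AT1G03940 (merged with its neighbour) and AT1G03495, both of the HXXXD acyltransferase family, had log2 0.83 and 0.75 per the authors' deposited table.

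Regulators moved both ways with ABA. Of 6 activator loci the merged locus of PAP2 and MYB114, the relatives of PAP1, rose from 0.220 to 2.77 FPKM (log2 3.66, q = 0.00398) per the authors' deposited table. TTG1, the WD40 partner of TT8, fell from 37.4 to 15.8 FPKM (log2 -1.24), and the bHLH gene EGL3 from 1.11 to 0.540 (log2 -1.04) per the authors' deposited table. Like these 4 members (DFR, LDOX, PAP1 and TT8), GSTF12 and the locus of PAP2 and MYB114 have no row for untreated rbm25-1, so that they too entered through their groups with ABA. PAP1 and PAP2 were identical at 84.3% of 747 aligned coding bases, and PAP2 and MYB114 at 91.4% of 420, so that reads of these genes may have been shared. Of 11 repressor genes 3 rose and 6 fell. The risers were the R2R3-MYB genes MYB32 (log2 1.24), MYB7 (1.19) and MYB4 (0.71) per the authors' deposited table. LBD38, for a factor that restrains anthocyanin synthesis when nitrate is ample, fell from 147 to 73.3 FPKM (q = 0.000132), and MYBL2 from 35.4 to 21.3 (log2 -0.73) per the authors' deposited table. The Kelch repeat F-box gene AT1G23390 had log2 -1.63, TRY -1.24, SPL9 -0.95 and CPC -0.72 per the authors' deposited table.

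Markers of shoot and root also moved with ABA, and their part in these results was not tested. Of 4 shoot markers of photosynthesis all fell, with log2 values from -1.93 (PSAD-1) to -1.31 (LHCA1), and all 3 root markers with a row fell, from -2.82 (HKT1) to -1.43 (CASP1), per the authors' deposited table. HKT1, at 2.73 FPKM untreated and 0.386 with ABA, is listed only through its untreated group, so that its fall was built into its listing. In bulked seedlings, fewer cells of a type and less RNA per cell cannot be told apart.

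The second comparison asks what rbm25-1 changes without ABA. None of the 6 members with a row was called, while 13.3% of 19327 loci were. By the authors' Cuffdiff p without adjustment, 0 of the 6 lay under 0.05, against 16.7% of all loci. FLS1 had the largest log2 value by size, -0.24 (q = 0.166), followed by F3'H at -0.19 (q = 0.416) and CHS at 0.15 (q = 0.335) per the authors' deposited table. CHI had log2 0.08 (q = 0.797) and MYB12 -0.03 (q = 0.910), and F3H stood at 7.81 and 7.80 FPKM (q = 0.996), per the authors' deposited table. The median was -0.01 on the log2 scale for these 6 members and also for 18240 genes. At 2-fold or more 1.41% of all loci were called here and no member. A q above the threshold does not show that the genotypes had equal levels.

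Of 39 loci in the further lists 6 were called in untreated seedlings, near the 13.3% of all loci. The repressors held 4 of these 6. Of 11 repressor genes 4 were lower in rbm25-1 and 0 higher, against 7.20% and 6.15% of all loci. SPL9, for a factor that hinders the PAP1 complex, stood at 2.21 FPKM in wild type and at 1.30 in rbm25-1 (log2 -0.77), and LBD39 had 60.9 and 44.1 (log2 -0.47) per the authors' deposited table. LBD37 fell from 115 to 88.0 FPKM (log2 -0.39) and LBD38 from 147 to 117 (log2 -0.32) per the authors' deposited table. Of 8 phenylpropanoid entry genes PAL2 (log2 0.31) and C4H (0.28) were higher per the authors' deposited table. No activator, decoration or other synthesis locus was called by the authors' Cuffdiff values, and 0 of their 6, 9 and 5 loci had an unadjusted p under 0.05. The 4 shoot markers were not called here, with a median log2 of 0.33. Of 4 root markers the iron transporter gene IRT1 rose (log2 3.03) and the phosphate transporter gene PHT1;1 fell (log2 -0.44) per the authors' deposited table. IRT1, at 0.372 FPKM in wild type and 3.04 in rbm25-1, is listed only through the mutant group, so that its rise was built into its listing. The part of these markers in the results was not tested. With p adjusted within this table alone, PAL2 (0.130), C4H (0.201) and LBD38 (0.113) no longer passed.

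The third comparison asks what rbm25-1 changes under ABA, and here 3 of the 4 early enzyme genes (CHS, F3H and F3'H) and the regulator PAP1 were higher in the mutant. CHS rose from 12.8 to 22.3 FPKM (log2 0.80, 1.75-fold, q = 0.000132), and F3H from 8.59 to 14.5 (log2 0.75, 1.68-fold, q = 0.000132), per the authors' deposited table. F3'H rose from 1.08 to 1.64 FPKM (log2 0.61, 1.53-fold, q = 0.0154), and PAP1 from 1.70 to 2.71 (log2 0.67, 1.59-fold, q = 0.0195), per the authors' deposited table. In total 4 of 10 members were higher and 0 lower, where 17.7% of 19244 loci were higher and 14.3% lower. By unadjusted p under 0.05 the 5 members were these 4 and LDOX, against 36.9% of loci, and 31.9% of loci were called in either direction. None of the 4 reached 2-fold, which 3.09% of loci did with q under 0.05, 1.30% on the higher side. On the log2(FPKM + 1) scale F3'H had 0.35 in place of 0.61.

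The remaining 6 members did not pass. LDOX with AT4G22870 had log2 0.75, close to that of F3H, with q = 0.0574 per the authors' deposited table. CHI had log2 0.31 (q = 0.257) and FLS1 0.18 (q = 0.317) per the authors' deposited table. MYB12, the activator of the early genes, had log2 0.06 (q = 0.842), DFR -0.03 (q = 0.924) and TT8 -0.09 (q = 0.722) per the authors' deposited table. Thus the 3 enzyme genes that were called act before the flavonol and anthocyanin branches part or on both, CHI of the same stretch was not called, and neither were the branch enzyme genes; the difference between these sets of genes was not tested. Over the 10 members the median was 0.46 on the log2 scale, against 0.03 over 18154 genes.

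**Figure D2:**
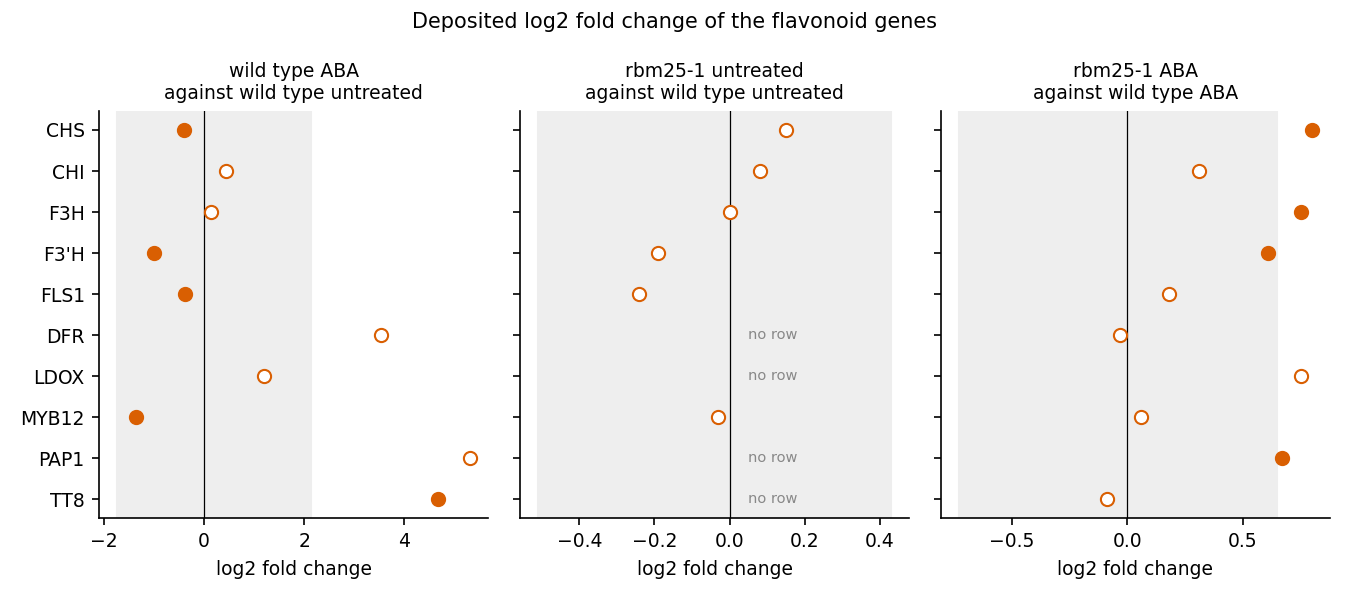
Deposited log2 fold change of each gene (points) in the 3 comparisons, filled where the authors' q was under 0.05; the grey band spans the 5th to 95th percentile of all genes with a single identifier, and each panel has its own scale. CHS (0.80), F3H (0.75), PAP1 (0.67) and LDOX (0.75, not called) lie above the band in rbm25-1 with ABA, and 4 genes have no row without ABA.

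Of 8 phenylpropanoid entry genes, which act upstream of CHS, 5 were higher in rbm25-1 with ABA and 0 lower, against 17.7% and 14.3% of all loci. PAL3 rose from 1.81 to 2.70 FPKM (log2 0.57), PAL2 from 17.6 to 24.5 (log2 0.47), and 4CL1, for the ligase that makes coumaroyl-CoA, from 59.2 to 82.2 (log2 0.47) per the authors' deposited table. PAL1 had log2 0.40 and C4H 0.32 per the authors' deposited table. PAL4 (log2 0.06, q = 0.698), the merged locus of 4CL2 (0.03, q = 0.901) and 4CL3 (-0.17, q = 0.748) did not pass per the authors' deposited table. C4H did not pass with p adjusted within the table (0.0651), which left 4 of 8. The list's median log2 was 0.36 over 8 loci, against 0.03 for all genes.

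Of 10 decoration and transport loci 3 were called, near the 31.9% of all loci called in either direction. UGT84A2 rose from 19.7 to 28.9 FPKM (log2 0.56), and the flavonol 7-O-rhamnosyltransferase gene AT1G06000 from 2.98 to 4.41 (log2 0.56) per the authors' deposited table. AT1G03940 with its neighbour fell from 19.9 to 12.4 FPKM (log2 -0.69) per the authors' deposited table, and the other 7 of 10 loci did not pass. Of 5 loci of other synthesis steps FLS2 rose by a log2 of 0.47 from 2.16 FPKM per the authors' deposited table.

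Of 11 repressor genes 6 were lower in rbm25-1 with ABA and 0 higher, against 14.3% and 17.7% of all loci. LBD38 fell from 73.3 to 50.2 FPKM (log2 -0.55), MYBL2 from 21.3 to 14.9 (log2 -0.52) and LBD39 from 60.3 to 42.7 (log2 -0.50) per the authors' deposited table. MYB32 had log2 -0.47, MYB7 -0.37 and LBD37 -0.36 per the authors' deposited table. Among activators TTG1 was higher, at 15.8 FPKM in wild type and 22.7 in rbm25-1 (log2 0.52), and the merged locus of PAP2 and MYB114 was lower, at 2.77 and 1.80 (log2 -0.62), per the authors' deposited table. PAP1 and its relatives PAP2 and MYB114 thus had opposite signs. With p adjusted within this table, AT1G06000 (0.0661), FLS2 (0.0715) and PAP2 with MYB114 (0.0841) no longer passed.

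The shoot markers RBCS1A (log2 0.77) and PSAD-1 (0.74) were also higher in rbm25-1 with ABA, CAB1 (0.35) and LHCA1 (0.17) did not pass, and the root marker PHT1;1 fell by 0.51 on the log2 scale per the authors' deposited table. Their part in the flavonoid values was not tested.

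**Figure D3:**
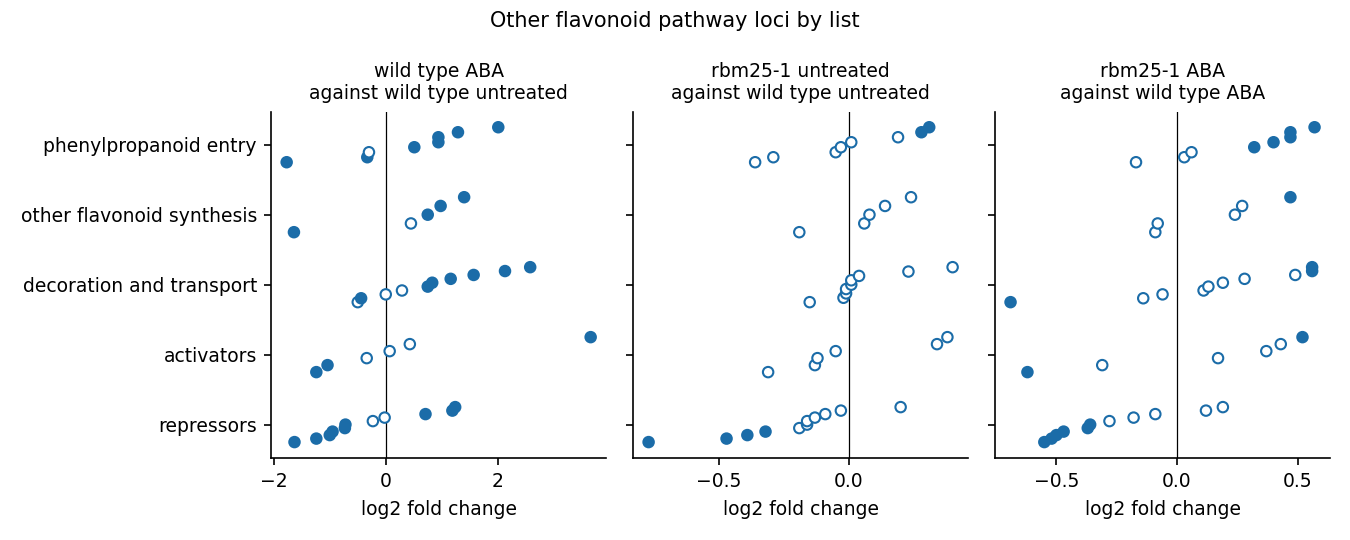
Deposited log2 fold change of the further pathway loci in 5 lists, 1 point per locus, filled where the authors' q was under 0.05; the scales of the 3 panels differ. In rbm25-1 with ABA the called phenylpropanoid entry genes lie above 0 and the called repressor genes below it.

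The ABA response of rbm25-1 itself has no deposited comparison among the gene tables used here. The wild-type group values shared between tables were equal for 18060 of 18075 genes without ABA and for 17981 of 17994 with ABA, so ratios were formed from the group values, with no test. For CHS the log2 ratio of ABA to untreated was -0.40 in wild type and 0.25 in rbm25-1. F3H had 0.14 in wild type and 0.89 in rbm25-1, and F3'H had -1.01 and -0.21. CHI had 0.43 and 0.66, and FLS1 had -0.38 and 0.05. MYB12 had -1.37 and -1.28, which is nearly the same ratio in both genotypes. The ratio was higher in rbm25-1 for all 6 members with values, by 0.09 (MYB12) to 0.80 (F3'H). Of 17563 genes 52.7% had a higher ratio in rbm25-1. For each gene this difference equals its log2 value in the third comparison less that in the second. It thus restates those values and is no separate support. The median difference was 0.54 over the 6 members and 0.03 over all genes, whose 5th and 95th percentiles were -0.62 and 0.65.

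**Figure D4:**
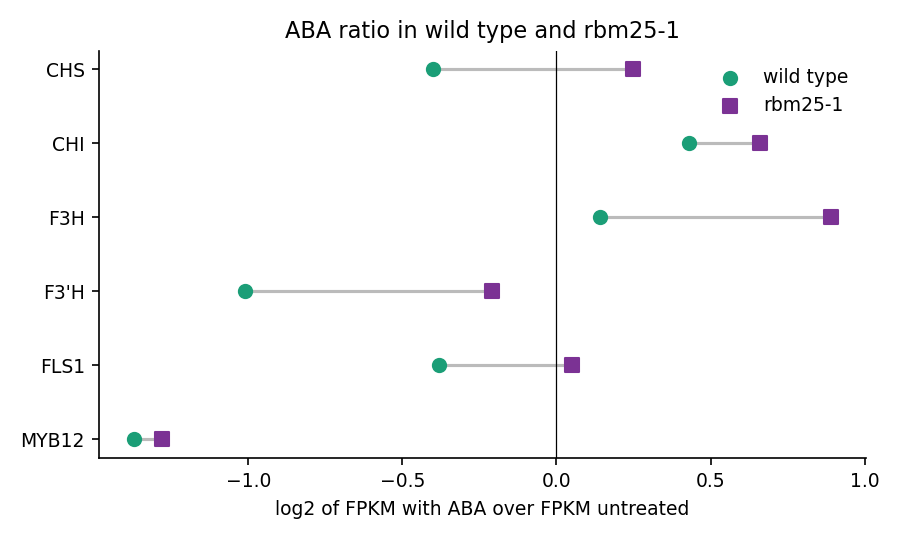
Log2 ratio of the FPKM group value with ABA to that without, in wild type (circles) and rbm25-1 (squares), for the 6 genes listed in all tables; a line joins the 2 genotypes. F3'H moves from -1.01 to -0.21 and F3H from 0.14 to 0.89, while MYB12 stays at -1.37 and -1.28.

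Adjusting p within each table instead called 55.9%, 5.83% and 25.7% of loci in the 3 comparisons in order, and requiring at least 1 FPKM in the higher group left 57.6%, 13.6% and 33.1% of the remaining loci called by q. The adjustment within each table moved no member across the threshold, CHS, F3H, F3'H and PAP1 in rbm25-1 with ABA among them. The minimum of 1 FPKM leaves q as it is and could move none, since each called member lay above it. It set DFR and LDOX aside, which did not reach 1 FPKM in any group.

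The genes most like CHS were sought among 17526 genes by the distance between their 3 deposited log2 values. The nearest outside the lists were AT1G30730 (distance 0.077), AT2G34357 (0.104) and SS1 (AT5G24300, 0.105). AT1G30730 had log2 -0.39 with ABA in wild type, 0.07 in untreated rbm25-1 and 0.81 in rbm25-1 with ABA, beside -0.40, 0.15 and 0.80 for CHS, per the authors' deposited tables. No such search was possible for PAP1, which has no row without ABA in rbm25-1.

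RBM25 being a splicing factor, the splicing tables were read for the same genes. For each event and group they hold a percent spliced in (PSI), read here as the share of the form whose junction the table lists as included. None of the 10 members has an event in any of the 3 deposited splicing tables, which does not show that their splicing was the same. Among the other lists 12, 10 and 18 events lay within the genes they name in the 3 comparisons in order, and 0 passed an adjusted p under 0.05, which 0.00952%, 0.0102% and 0.0179% of all events did. Only the event of CHIL in untreated seedlings had an unadjusted p under 0.05, where 4.83%, 6.13% and 6.40% of all events had one. Its transcripts use either of 2 donor sites 51 bases apart, shown here with 3 exon and 6 intron bases and the GT of the intron in capitals, at chr5:1563490-1563498 and chr5:1563541-1563549 (plus strand, TAIR10.1).
CHIL upstream donor: aaaGTaagt
CHIL downstream donor: aaaGTaaga
The table lists the junction from the downstream donor, which gives the longer exon, as included and that from the upstream donor as excluded. The 2 annotated coding sequences start at chr5:1563492 and chr5:1563543, the last exon base at each donor. The 51 bases as a whole thus lay inside a coding exon of neither. The last of them, chr5:1563543, is the first coding base of the second. The included form had 11.11% PSI in untreated wild type and 0% in untreated rbm25-1 (unadjusted p = 0.000313, adjusted p = 0.355 by Benjamini-Hochberg) per the authors' deposited table. With ABA it had 6.9% in wild type and 10.53% in rbm25-1 (unadjusted p = 0.500) per the authors' deposited table, so that the sign turned. The reads behind these percentages are not given, and CHIL itself had log2 -0.19 untreated (q = 0.276) and 0.27 with ABA (q = 0.0810) in rbm25-1 against wild type per the authors' deposited tables.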

How the data were processed

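Polyadenylated RNA of 12 seedling samples was sequenced. Per the submitters' processing notes, the tools were Trimmomatic 0.32, TopHat2 2.0.13, Cufflinks 2.2.1 and Cuffdiff, with the build TAIR10, and no settings are given. The authors deposited 3 gene tables with FPKM per group, log2 fold change, p-value and q-value, and 3 splicing tables with PSI in percent per group, the difference in PSI as a score and an unadjusted p, per the file headers. Depth is unknown, no value per sample is given, and no test was refitted. Equal p-values had q values within 1% of each other in all tables, so the authors' adjustment spans the comparisons. Damaged splicing events (33, 28 and 28 in the order of comparisons used here) were left out, where the deposited difference was not that of the PSI values within 0.05 points, or p exceeded 1. Also left aside were 3 events per table that lie outside the gene they name.

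The p-values were adjusted within each table as an alternative by Benjamini-Hochberg, which was checked on simulated p-values. Deposited locus starts are counted from 0 and were raised by 1. The TAIR10.1 reference was used for sequence, since deposited coordinates lay within its chromosomes and 95.6%, 95.7% and 94.9% of retained introns had GT-AG ends. Coding sequences were aligned globally with Biopython 1.88. Members, lists and rules were chosen with earlier results of these data known. All 10 members are named, as is every called locus of the further lists, and the 3 genes nearest to CHS.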

Additional observations from a re-analysis of the deposited data

How the results depend on the processing

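No paired analysis was possible because the tables hold 1 value per group, and for the same reason no replicate could be left out. With p adjusted within each table all 26 calls of members remained on their side of the threshold. A minimum of 1 FPKM in the higher group could not change the counts of called members, each of which lay above it. At a minimum of 2-fold, 3 members instead of 5 were called in wild type with ABA, of which 2 instead of 4 were lower, and 0 instead of 4 were called higher in rbm25-1 with ABA, since the called folds there lay between 1.53 and 1.75. With a pseudocount of 1 FPKM or centring on the median of all genes, 52 log2 values were computed. Centring reversed the sign of no called member, and uncalled members were not checked for sign. A pseudocount added to both groups cannot turn a sign, so it was read only for the size of the values. The pseudocount took the wild-type ABA value of TT8 from 4.68 to 1.45, MYB12 from -1.37 to -0.86, F3'H from -1.01 to -0.61, PAP1 from 5.32 to 1.37, DFR from 3.53 to 0.79 and LDOX from 1.20 to 0.33. In rbm25-1 with ABA it took F3'H from 0.61 to 0.35 and LDOX from 0.75 to 0.32. The median log2 ratio of ABA to untreated in rbm25-1 over 6 members, 0.15, was 0.14 with the pseudocount and 0.16 with centring. Low levels limit DFR, LDOX, PAP1 and TT8, each under 0.25 FPKM in untreated wild type.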
